A study of Canis lupus familiaris with 31 samples.

Results

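The cytosolic ribosomal proteins are the proteins of the ribosomes that translate messenger RNA (mRNA) in the cytoplasm. A row of the table of counts was taken as a member when its gene symbol was RPL or RPS followed by a digit, or was RPSA, RPLP0, RPLP1 or RPLP2. Kinase genes of the RPS6K family and symbols ending in L1 or L2 were left out. The rule found 56 of the 32704 rows, with 55 symbols, because RPL37 stood on 2 rows (ENSCAFG00000003126 and ENSCAFG00000024307) that were kept apart. Of the 56 rows, 23 encode proteins of the small (40S) subunit and 32 proteins of the large (60S) subunit. RPS19BP1, which encodes a protein that binds RPS19 and a deacetylase, is not a part of the ribosome, although its symbol met the rule. No row carried the symbol RPLP1, RPLP2, RPL10, RPL36A or RPL39, and these genes were not analysed here.

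Each ribosome holds 1 copy of nearly every one of these proteins, and cells make them in matched amounts. Their mRNAs begin with a run of pyrimidines, the terminal oligopyrimidine (TOP) motif, through which their translation is switched on and off together with cell growth. Among blood cells, lymphocytes are rich in these mRNAs, mature neutrophils hold few ribosomes, and young red cells (reticulocytes) keep the mRNAs for a short time after the nucleus is lost. Loss of 1 copy of several ribosomal protein genes causes Diamond-Blackfan anaemia, a failure of red cell production. The genes also have many processed pseudogenes, near-identical copies elsewhere in the genome that can take reads from the parent gene or lend reads to it.

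Whole blood was sequenced from 31 client-owned purebred Miniature Schnauzers, older adult dogs that had been fasted and were nearly all neutered, with 1 library per dog. The cases were 13 dogs (5 females and 8 males) with HTG, a spontaneous raised concentration of triglycerides in the blood, and the controls were 18 dogs (8 females and 10 males) of the same breed with normal triglycerides. No dog received a treatment as part of the design, and diet and living conditions were not standardized, so that a difference between the groups is one between owned dogs and not the outcome of an intervention. Libraries were made with a stranded total RNA kit with removal of ribosomal RNA, and the values are read pairs counted on each gene, although a label of the samples gives the molecule as polyA RNA, and the labels and the methods name different extraction kits. Depth ran from 14524659 to 41533599 counts per dog. After low counts were filtered, 13918 genes were tested with edgeR's quasi-likelihood test, among them 55 of the 56 members. The row left out was RPL10L, a testis-expressed copy of RPL10, which had 1 count in 1 dog.

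Levels are given as CPM, the counts of a gene scaled to a common, normalized library size, and differences on the log2 scale. Some libraries stood apart before any comparison of the groups. In their mean level over the 366 tested rows with names of small non-coding RNAs, 10 dogs (5 cases and 5 controls) lay at 1.66 log2 CPM or above and the other 21 (8 cases and 13 controls) at 1.40 or below. These are called here the high side and the low side of the small RNA split, which was found in the data and is not a group of the study. The study's methods describe a pilot set with separate extraction and library preparation and a visible batch effect, and its numbers of cases and controls equal those of the high side. The labels do not name the pilot dogs, so whether the high side is that set was not tested, and a difference between the sides cannot be told apart from one of library preparation. The library of control_09, on the low side, had the highest score of 31 dogs for neutrophil markers and the lowest for cytotoxic cell and eosinophil markers. The libraries of control_03 and case_01 had the highest scores for erythroid markers. No marker row that was found stood at 0, and the table held markers of red cells, platelets, neutrophils, eosinophils, monocytes, B cells, T cells and cytotoxic cells, as whole blood does. In whole blood, fewer cells of a type and less of an mRNA per cell cannot be told apart.

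Members took a small share of the counts, and it varied more within the groups than between them. They held 1.65 ± 0.360% (SD, n = 13) of the counts in cases, from 1.11% in case_07 to 2.39% in case_03, with a median of 1.59%. In controls they held 1.78 ± 0.303% (SD, n = 18), from 1.20% in control_03 to 2.40% in control_10, with a median of 1.73%. The groups overlapped over nearly their whole ranges, although only 3 of the 13 cases exceeded the control median. Over all dogs the highest share was 2.17-fold the lowest. The 3 lowest shares, those of case_07, control_03 and case_06, came from dogs of the high side, and the 3 highest, those of control_10, case_03 and control_12, from dogs of the low side. The share was 1.47 ± 0.235% (SD, n = 10) on the high side and 1.85 ± 0.298% (SD, n = 21) on the low side. The order of the dogs depended in part on a few very abundant other genes. With the 20 other genes of highest total left out, the 3 lowest were case_07 (1.58%), case_06 (1.84%) and case_01 of the low side (2.01%). The share of control_03 was then 2.09%. On that measure the high side held 2.15 ± 0.304% (SD, n = 10) and the low side 2.45 ± 0.363% (SD, n = 21).

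Counts on the 2 subunits moved together. The ratio of 60S to 40S counts was 1.18 ± 0.047 (SD, n = 13) in cases and 1.21 ± 0.065 (SD, n = 18) in controls. The control_09 library lay apart, at 1.41, with the next dog, control_07, at 1.26.

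**Figure D1:**
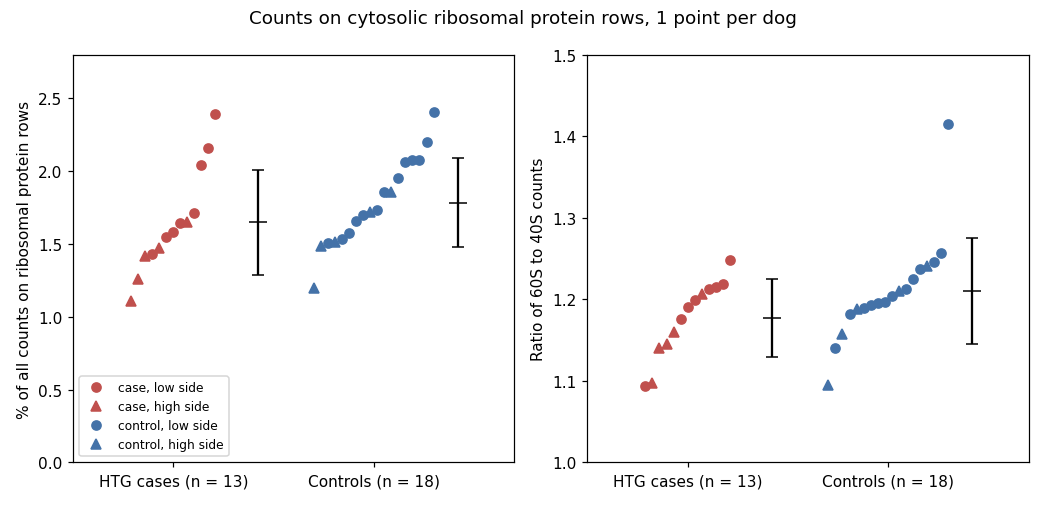
Left, percentage of all counts on ribosomal protein rows, and right, ratio of counts on 60S to counts on 40S rows, for 13 HTG cases and 18 controls sorted within each group; 1 point is 1 dog, triangles are dogs of the high side of the small RNA split, and black bars are the mean and SD (the right axis starts at 1). The groups overlap in both panels, the lowest share in each group is a triangle, and control_09 stands alone at a ratio of 1.41.

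The 5 rows with the most counts held 24.9% of all member counts. RPL13A, a 60S protein that also takes part in silencing of inflammatory mRNAs, came first with 6.91% and was followed by RPL8, RPS4X, RPS6 and RPLP0. RPL13A lay between 800.1 and 1469 CPM in cases (median 1063) and between 938.3 and 1576 in controls (median 1134). RPL8, a 60S protein near the site of peptide bond formation, lay between 609 and 1015 CPM in cases (median 775) and between 628 and 1144 in controls (median 865). The lowest case stood under the lowest control for both genes, and the ranges otherwise overlapped. Least counted among the rows tested were RPL37 (ENSCAFG00000024307), with 0.0167% of member counts, RPL37 (ENSCAFG00000003126), with 0.0474%, and RPS19BP1, with 0.25%.

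Members differed between dogs of 1 group about as much as well counted genes did in general. The median within-group SD of log2 CPM was 0.26 for the members against 0.36 for all genes tested. The members are also among the better counted genes, and over genes with a mean of at least 5 log2 CPM the medians were 0.26 and 0.25. The least variable member was RPS3, a 40S protein at the mRNA entry channel, with an SD of 0.18, followed by RPS7, RPS9, RPS27A and RPL19. Most variable were the 2 rows of RPL37, a small 60S protein, with SDs of 0.57 and 0.55, followed by RPLP0 at 0.43, RPS4X at 0.42 and RPL23 at 0.41. Between the lowest and the highest dog the members spanned from 1.58-fold to 6.32-fold, with a median of 2.13-fold.

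A few dogs held most of the extremes. Of the 55 members tested, 27 were lowest in case_07, which was a female of the high side. The highest dog was control_03 for 14 members, case_03 for 11 and control_09 for 10. The control_09 library was highest for some members and lowest for others. It had 223 CPM of RPL36AL, an expressed copy of the 60S gene RPL36A, where the next dog had 136, and it had 451 CPM of RPL27 where the next dog had 307. For RPS4X, the 40S protein encoded on the X chromosome in mammals, it had 357 CPM against 583 in the next lowest dog, and for RPS15, a 40S protein at the decoding centre, 72.6 against 94.9. What set this library apart was not tested.

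The study's main comparison asks what differs in the blood of dogs with HTG. No ribosomal protein row was called between cases and controls at an adjusted P of at most 0.05 in edgeR, where 0.0359% of all genes (5 genes) were called. At an unadjusted P under 0.05 the members counted 0 of 55 and all genes 9.81%. DESeq2 and limma-voom also called 0 members (0.604% and 0% of all genes), and neither gave a member an unadjusted P under 0.05 (10.5% and 11.2% of all genes). Fold changes were small and mostly below 0. Their median was −0.04 on the log2 scale (−0.02 over all genes), 15 of 55 lay above 0 (45.5% of all genes), and they ran from −0.23 for RPL23 to 0.19 for RPL37 (ENSCAFG00000003126). Without case_07 the median was −0.02 and 21 of 55 lay above 0. For the 40S rows the median was −0.03 and for the 60S rows −0.05. Cases and controls overlapped for every one of the 55 members, as they did for all 13918 genes tested (0% not overlapping).

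A missed threshold does not show that the groups were alike, so the intervals bound what these 31 dogs could leave unseen. The 95% interval of the case effect lay within a 1.19-fold change in either direction for 25 members and within a 1.41-fold change for 52. The exceptions were RPL37 (ENSCAFG00000003126), with an interval from −0.20 to 0.59 on the log2 scale, RPL26, from −0.51 to 0.05, and RPL23, from −0.53 to 0.07.

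**Figure D2:**
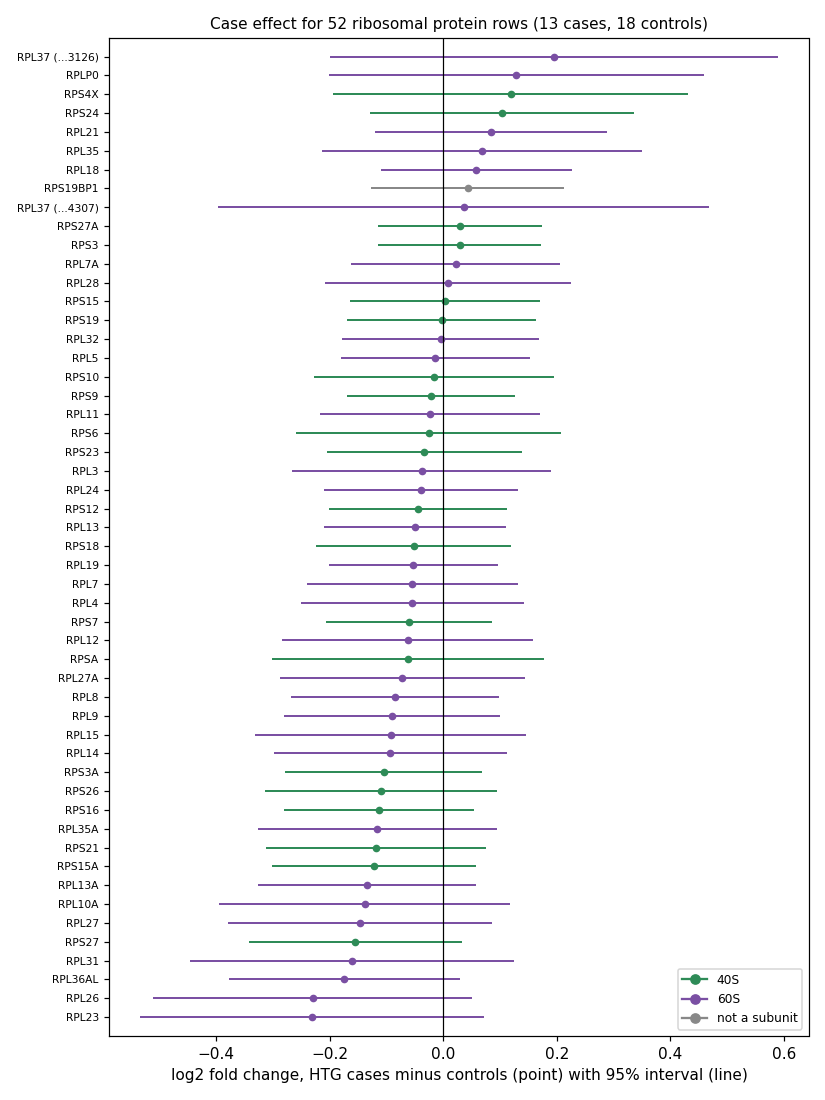
Log2 fold change of HTG cases over controls for 52 of the 55 ribosomal protein rows tested (points, 13 cases and 18 controls) with 95% intervals from the edgeR fit (lines), ordered by size and coloured by subunit. Every interval drawn holds 0, and all but those of RPL37 (ENSCAFG00000003126), RPL26 and RPL23 lie between −0.5 and 0.5.

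The 5 members with the smallest P among those lower in cases were RPL36AL, RPS27, RPL26, RPL23 and RPL13A. RPL36AL ranged from 87.5 to 124 CPM in cases (median 99.2) and from 90.0 to 223 in controls (median 103), and its log2 fold change was −0.17 (SE 0.10, adjusted P = 0.596 in edgeR). Without control_09, the dog at 223 CPM, this difference was −0.09. RPL26, a 60S protein that also binds the mRNA of the tumour suppressor p53, ranged from 170 to 450 CPM in cases (median 291) and from 251 to 628 in controls (median 323), with a log2 fold change of −0.23 (SE 0.14, adjusted P = 0.612 in edgeR). RPL23, a 60S protein that can bind the p53 regulator MDM2, ranged from 64.3 to 195 CPM in cases (median 106) and from 65.8 to 246 in controls (median 117), with a log2 fold change of −0.23 (SE 0.15, adjusted P = 0.639 in edgeR). In all 3 genes case_07 was the lowest of the 31 dogs and control_09 the highest. RPS27, a zinc-binding 40S protein, differed by −0.15 (SE 0.09) and RPL13A by −0.13 (SE 0.09).

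Higher in cases with the smallest P were RPL37 (ENSCAFG00000003126), RPS24, RPL21, RPLP0 and RPS4X. The RPL37 row ranged from 4.91 to 14.9 CPM in cases (median 9.19) and from 3.71 to 17.1 in controls (median 7.02), and 11 of the 13 cases exceeded the control median. The log2 fold change was 0.19 (SE 0.19, adjusted P = 0.789 in edgeR). The second RPL37 row, ENSCAFG00000024307, ranged from 1.60 to 4.88 CPM in cases (median 3.28) and from 1.22 to 7.72 in controls (median 2.55), with a log2 fold change of 0.04 (SE 0.21). Both rows were lowest in control_07 and highest in control_03. Rows that share a symbol may not be independent of each other, which was not tested. The study's table of read numbers lists multiply mapped reads as unassigned, so that rows with near-identical copies elsewhere in the genome are uncertain.

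RPLP0 encodes the base of the ribosomal P stalk, which recruits the elongation factors of translation. It ranged from 440 to 971 CPM in cases (median 663) and from 437 to 1680 in controls (median 556). Its log2 fold change was 0.13 (SE 0.16, adjusted P = 0.843 in edgeR), and the highest value, 1680 in control_03, was 1.73 times the next. RPS4X ranged from 671 to 1320 CPM in cases (median 877) and from 357 to 1902 in controls (median 762), with a log2 fold change of 0.12 (SE 0.15, adjusted P = 0.849 in edgeR). The extremes of RPS4X were both controls, control_09 at the bottom and control_03 at the top. RPL21, a small 60S protein, differed by 0.08 (SE 0.10).

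Some members are known for a disease or a second role. RPL5 and RPL11 form with 5S ribosomal RNA the particle that stabilizes p53 when ribosome assembly fails, and they differed by −0.01 (SE 0.08) and −0.02 (SE 0.09) on the log2 scale. RPS19, the gene mutated most often in Diamond-Blackfan anaemia, ranged from 224 to 367 CPM in cases (median 307) and from 221 to 366 in controls (median 303), and differed by less than 0.01. Of some other genes linked to that disease, RPS7, RPS10, RPS24, RPS26 and RPL35A differed by between −0.12 for RPL35A and 0.10 for RPS24, while RPL26 and RPS27, described above, are linked to it as well and lay further below 0. RPSA, the 40S protein also known as a laminin receptor, differed by −0.06 (SE 0.12). RPS6, the 40S protein phosphorylated when cells are stimulated to grow, ranged from 608 to 1032 CPM in cases (median 725) and from 596 to 1342 in controls (median 719), and differed by −0.03 (SE 0.11). RPS27A, made as a fusion of ubiquitin with a 40S protein, differed by 0.03 (SE 0.07), and RPS19BP1 by 0.04 (SE 0.08).

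Markers of other cells also leaned with the group. Of the 8 erythroid markers 7 were above 0 in cases and 0 were called, and their summed level ran from 891 to 18150 CPM in cases (median 4013) and from 721 to 32970 in controls (median 1834). Of the 10 T cell markers 0 were above 0, with a summed level from 434 to 1446 CPM in cases (median 824) and from 614 to 1492 in controls (median 1038), and all 6 platelet markers were above 0, 5 of them at an unadjusted P under 0.05 and 0 called. Above 0 were also all 6 cytotoxic cell markers, 5 of 7 B cell, 4 of 6 neutrophil, 3 of 5 monocyte and 1 of 3 eosinophil markers, with 0 called (45.5% of all genes were above 0). The part of these markers in the case differences of the members was not tested singly. With the erythroid and T cell scores but not the platelet score in the fit, 0 members were called (0% of all genes). An unadjusted P under 0.05 was reached by 0 members (12% of all genes). Among the 5 named members higher in cases, RPLP0 went from 0.13 to −0.04, RPS4X from 0.12 to 0.03 and RPL37 (ENSCAFG00000003126) from 0.19 to 0.13. The others moved the other way, RPS24 from 0.10 to 0.13 and RPL21 from 0.08 to 0.12. The median over members went from −0.04 to −0.03.

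Sex was compared because RPS4X lies on the X chromosome in mammals. No member was called between females and males in edgeR, where 0.122% of all genes were called, and 0 of 55 had an unadjusted P under 0.05 (4.89% of all genes). DESeq2 and limma-voom called 0 members as well (0.187% and 0.129% of all genes), with 0 at an unadjusted P under 0.05 (5.3% and 5.77% of all genes). The median difference, females minus males, was 0.00 on the log2 scale, with 30 of 55 members above 0 (43.5% of all genes). RPS4X ranged from 712 to 1320 CPM in females (median 847) and from 357 to 1902 in males (median 749). Its difference was 0.19 (SE 0.15, 95% interval −0.12 to 0.49, adjusted P = 0.959 in edgeR), and 0.14 (SE 0.14) without control_09. The smallest unadjusted P was that of RPL18, a 60S protein, which was lower in females by −0.14 (SE 0.08, adjusted P = 0.959 in edgeR). The case effect did not pass a test of difference between the sexes in any member in edgeR or DESeq2 (0 called, and 0 at an unadjusted P under 0.05 in edgeR, against 0 and 3.93% of all genes), and 29 of 55 differences lay above 0 (53% of all genes).

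The sides of the small RNA split differed in their ribosomal proteins, a comparison made after the data were seen. On the high side 12 members were called lower (3.02% of all genes were) and 2 higher (4.54% of all genes), by edgeR with the group in the fit, and 14 were called in all (7.57% of all genes). At an unadjusted P under 0.05 the count was 23 of 55 (21.9% of all genes), and 15 of 55 lay above 0 (46.9% of all genes). Lower were 9 proteins of the 60S subunit, RPL26, RPL23, RPL15, RPL31, RPL10A, RPL3, RPL27A, RPL14 and RPL4, and 3 of the 40S subunit, RPSA, RPS10 and RPS15A. RPSA ranged from 233 to 367 CPM on the high side (median 310) and from 348 to 536 on the low side (median 424), so that the sides overlapped only between 348 and 367. Its log2 difference was −0.51 (SE 0.09, adjusted P = 0.000179 in edgeR). RPL26 ranged from 170 to 285 CPM on the high side (median 253) and from 273 to 628 on the low side (median 350), a log2 difference of −0.56 (SE 0.11, adjusted P = 0.000826 in edgeR). RPL15, a 60S protein, ranged from 207 to 296 CPM on the high side (median 259) and from 259 to 533 on the low side (median 340), a log2 difference of −0.46 (SE 0.10, adjusted P = 0.00142 in edgeR). In these 3 genes no dog of the high side reached the median of the low side, although the ranges overlapped. RPL3, at the peptidyl transferase centre of the 60S subunit, ranged from 259 to 465 CPM on the high side (median 371) and from 364 to 690 on the low side (median 487), and RPL23 from 64.3 to 114 (median 93.0) and from 89.1 to 246 (median 120). In both, every dog of the high side likewise lay under the low-side median. RPS10, a 40S protein of the beak region, ranged from 215 to 406 CPM on the high side (median 263) and from 256 to 450.5 on the low side (median 344), with control_03 as the 1 dog of the high side above the low-side median.

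The 2 rows higher on the high side were those of RPL37. The row ENSCAFG00000003126 ranged from 8.97 to 17.1 CPM on the high side (median 12.4) and from 3.71 to 12.9 on the low side (median 6.99), a log2 difference of 0.79 (SE 0.14, adjusted P = 0.000281 in edgeR). The row ENSCAFG00000024307 ranged from 3.04 to 7.72 on the high side (median 4.17) and from 1.22 to 5.33 on the low side (median 2.36), a log2 difference of 0.75 (SE 0.18, adjusted P = 0.00575 in edgeR). Both thus lay opposite to the 9 other rows of the 60S subunit called in this comparison. Platelet markers moved with the side as well. Of 6 platelet markers 5 were called higher on the high side, with a summed level from 2468 to 5513 CPM (median 3830) against 828 to 4563 (median 2614) on the low side. With the platelet score in the fit, 1 member was called higher, RPL37 (ENSCAFG00000003126), and 3 were called lower, RPSA, RPS10 and RPL15 (2.35% and 0.445% of all genes). Of the lower rows no longer called, RPL31 went from −0.45 to −0.54 on the log2 scale, RPS15A stayed at −0.29 and RPL26 went from −0.56 to −0.45, while RPL23 went from −0.53 to −0.35. RPL10A, RPL3, RPL27A, RPL14 and RPL4 were no longer called either. Over the 55 members tested the median difference went from −0.13 to −0.12. No marker of the other cell types was called between the sides in edgeR, where 2 erythroid, 1 T cell and 1 eosinophil marker had an unadjusted P under 0.05, and their summed levels overlapped widely. Erythroid markers summed to between 1148 and 32970 CPM on the high side (median 3829) and between 721 and 18150 on the low side (median 2483), and T cell markers to between 434 and 1492 (median 782) and between 591 and 1446 (median 999.7). Cytotoxic cell markers had medians of 62.5 and 107 CPM on the high and low side, and eosinophil markers 992 and 676. With the erythroid and T cell scores in the fit, 3 members were called higher and 13 lower (4.14% and 3.07% of all genes), and the median difference of the members went from −0.13 to −0.07. Leaving out any 1 dog of the high side, or control_09, left 2 called higher and between 9 and 13 called lower (from 3.59% to 5.06% and from 1.69% to 3.82% of all genes).

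The case effect was then compared between the sides. No member differed at the adjusted threshold, and 1 of 55, RPL37 (ENSCAFG00000003126), had an unadjusted P under 0.05 (4.35% of all genes), with a difference of −0.64 on the log2 scale (SE 0.28, P = 0.0311 before adjustment and 0.970 after, in edgeR). In all, 3 of 55 differences lay above 0 (46.8% of all genes). That row ranged from 8.97 to 14.9 CPM in the cases of the high side and from 11.3 to 17.1 in its controls, and from 4.91 to 12.9 in the cases of the low side and from 3.71 to 10.8 in its controls. Within the high side 0 of 55 members were above 0 (44.9% of all genes), with a median of −0.16, and within the low side 35 were (47.5% of all genes), with a median of 0.04. The members move together, so that these counts are far from 55 separate observations, and the difference was not called for any of them. Each side had 0 members called (0 and 0.00718% of all genes on the high and low side) and 1 member at an unadjusted P under 0.05 (5.58% and 9.33% of all genes), RPS16 on the high side and RPL37 (ENSCAFG00000003126) on the low side. Without control_03, 42 members were below 0 on the high side instead of 55, with a median of −0.11, and the median difference between the sides went from −0.19 to −0.11. Without case_07 these medians were −0.11 and −0.12. For all 8 erythroid markers the difference of the case effect, high side minus low side, was also below 0, with a median of −1.09. Over all dogs, however, 7 of the 8 had a case effect above 0. The part of these markers in the difference of the members was not tested.

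Over the 31 dogs the members rose and fell together. The median correlation between pairs of members was 0.50 over 1485 pairs, and 90.4% of pairs were above 0, as a description over 31 dogs whose libraries share depth and cell mixture. With each gene centred within group and side the median was 0.54. The same median was 0.51 for 26 genes of ribosome assembly, 0.28 for 21 translation factors and other TOP mRNAs, and 0.20 for 59 mitochondrial ribosomal proteins, which are built into the separate ribosomes of mitochondria. Against the mean of the other members, RPL13A had the highest correlation, 0.92, and the median was 0.72. The 46 members over 0.5 left out 9, among them both RPL37 rows (0.14 and 0.27), RPS4X (0.29), RPS19BP1 (0.34), RPLP0 (0.36) and RPL35 (0.45). RPL9, a 60S protein of the stalk base, was the only member below 0, at −0.24.

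**Figure D3:**
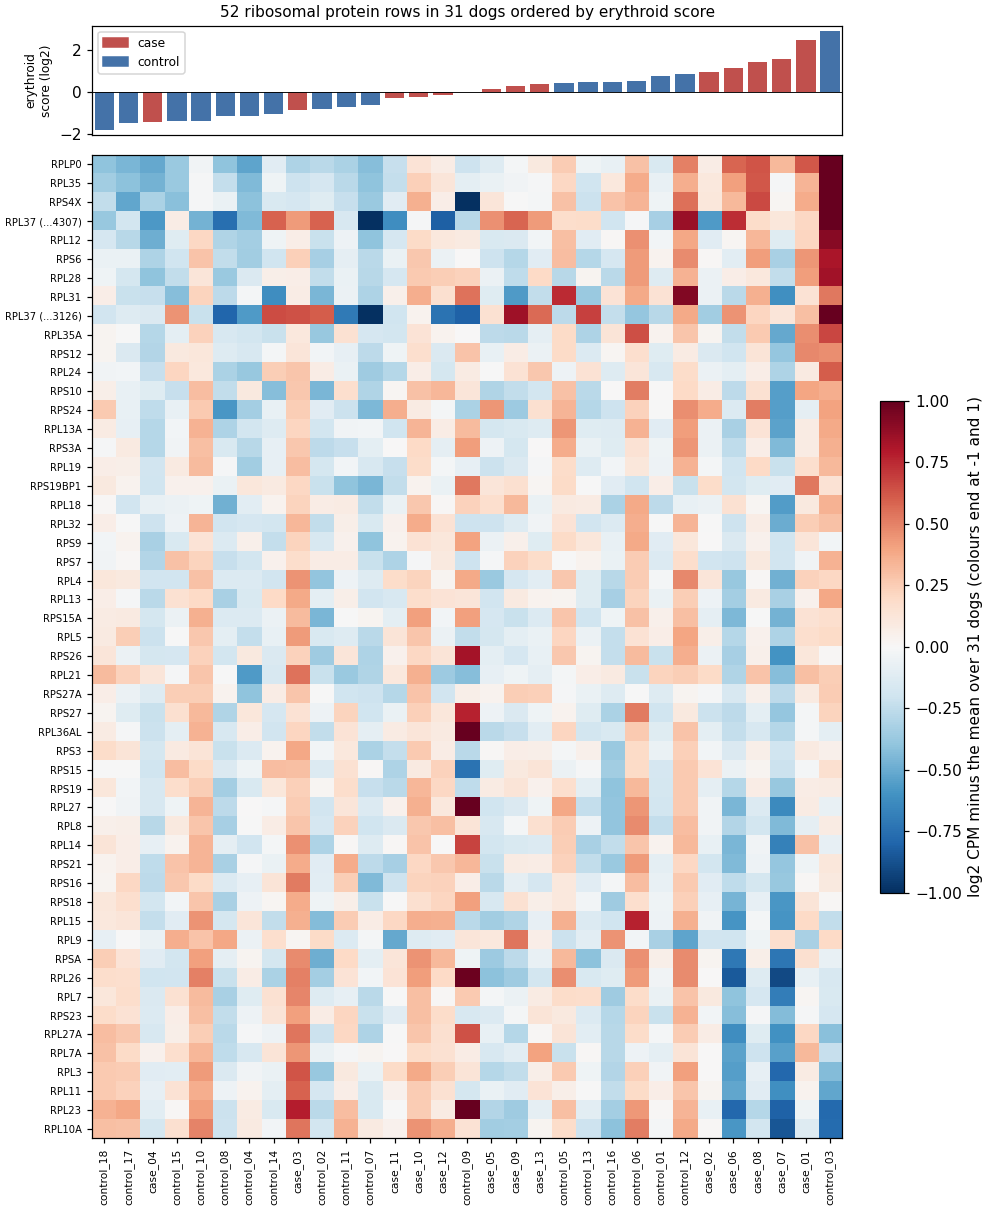
Each of 52 ribosomal protein rows (vertical, ordered by slope on the erythroid score) in each of 31 dogs (horizontal, ordered by erythroid score, shown as bars on top and coloured by group), as log2 CPM minus the row's mean. The rows at the top, led by RPLP0, are high in the dogs with high erythroid scores on the right, the rows at the bottom, ending with RPL10A, are low in case_06, case_07 and control_03, and control_09 stands out as a single column.

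Members were therefore set against the levels of blood cell markers, by fits made after the data were seen. A score was the mean centred log2 CPM of a list of markers, and a slope is the change of a member in log2 CPM per unit of score, with the group in the fit. On the T cell score 20 of 55 members (36.4%) had a slope called above 0 and 0 below, against 15.4% and 17.6% of all genes. On the erythroid score 11 members (20%) were called above 0 and 2 (3.64%) below, against 16.4% and 15.4% of all genes, so that the share called above 0 was near that of all genes. The 2 lists of rising members had 0 genes in common. Of the 11 rising with the erythroid score 8 had a T cell slope below 0, and of the 20 rising with the T cell score 16 had an erythroid slope below 0. The 2 scores come from the same libraries and the dogs with the most erythroid signal had low T cell scores, so that the fits are not independent of each other.

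RPLP0 led the members that rose with the erythroid score, with a slope of 0.33 (SE 0.03, adjusted P = 4.98e-10 in edgeR). It was highest in control_03, which had the highest erythroid score, and lowest in control_04. Of the 11 rising rows, 10 had their highest value in control_03. RPL35 ranged from 269.5 to 577 CPM in cases (median 371) and from 275 to 883 in controls (median 341). The top control, control_03, lay far above every case. RPL35, a 60S protein at the exit of the peptide tunnel, had a slope of 0.27 (SE 0.03, adjusted P = 7.92e-08 in edgeR) and RPS4X one of 0.26 (SE 0.05, adjusted P = 5.26e-05 in edgeR). Then came RPL37 (ENSCAFG00000024307) at 0.25, and others called above 0 included RPL12 at 0.18, RPS6 and RPL28 at 0.15, RPL35A at 0.13 and RPS12 at 0.08. Without control_03 and case_01, the 2 dogs farthest from the median erythroid score, 4 members were still called above 0 (11.5% of all genes), RPLP0 (slope 0.28, SE 0.04), RPL35 (0.22), RPS4X (0.21) and RPL12 (0.14), and all 11 kept slopes above 0, while 1 other member was called below (9.69% of all genes). With the T cell score in the same fit, 18 were called above and 0 below (9.64% and 4.56% of all genes). Within the low side 8 members were called above 0 and 0 below (8.48% and 4.24% of all genes), and within the high side 8 above and 2 below (8.95% and 5.3% of all genes).

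**Figure D4:**
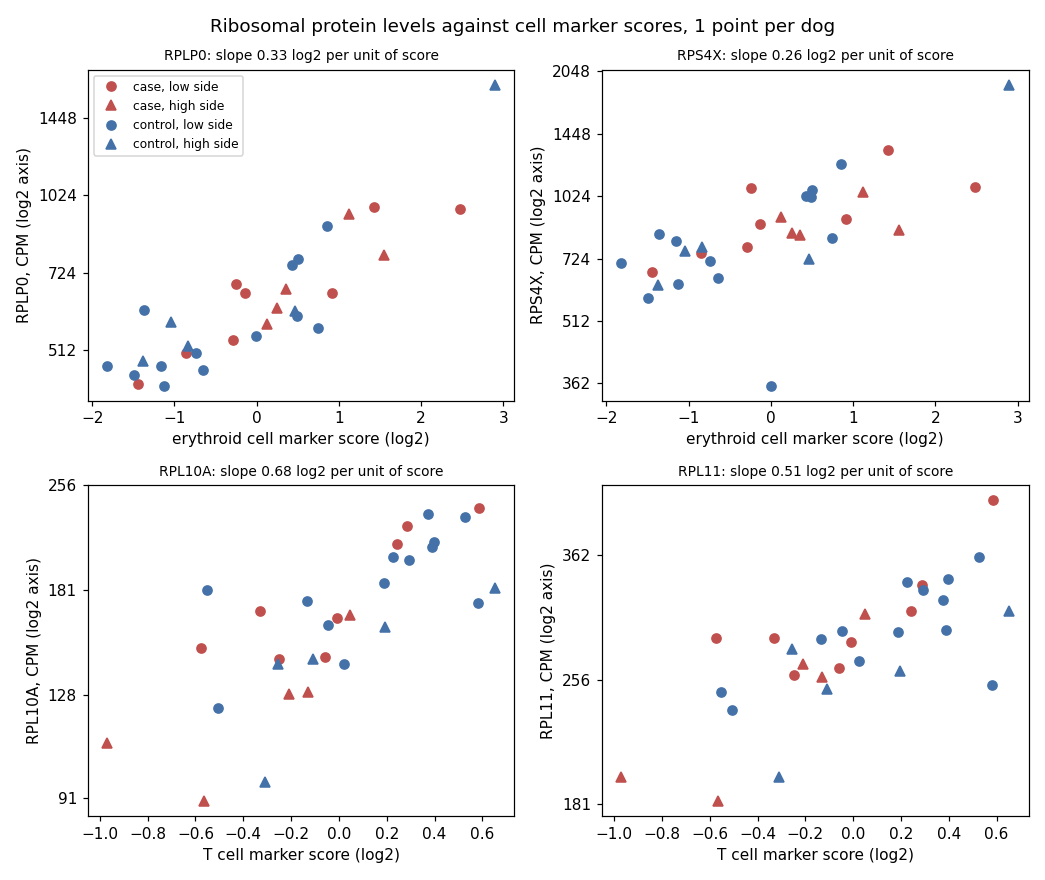
Levels of RPLP0 and RPS4X against the erythroid marker score (top) and of RPL10A and RPL11 against the T cell marker score (bottom), in CPM on log2 axes with scores in log2 units; 1 point is 1 dog, coloured by group and shaped by side. RPLP0 rises with the erythroid score to 1680 CPM in control_03, RPS4X does so apart from control_09 at 357 CPM, and RPL10A and RPL11 rise with the T cell score.

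RPL10A led the members that rose with the T cell score. This 60S protein of the L1 stalk ranged from 90.1 to 237 CPM in cases (median 149.6) and from 96.0 to 232 in controls (median 178), and its slope was 0.68 (SE 0.11, adjusted P = 6.99e-05 in edgeR). After it came RPL15 at 0.54 (SE 0.12), RPSA at 0.53 (SE 0.13), RPL3 at 0.52 (SE 0.12), RPL11 at 0.51 (SE 0.09) and RPS23, a 40S protein that guards decoding accuracy, at 0.45 (SE 0.08). Others included RPS15, RPL7A, RPS21, RPS19, RPL8, RPL7, RPL27A, RPS16, RPL32, RPS3, RPL5, RPL13 and RPS18. RPL10A and RPL11 were the 2 members called below 0 on the erythroid score, with slopes of −0.15 (SE 0.05) and −0.11 (SE 0.04). With the T cell score in the same fit these slopes were −0.043 (adjusted P = 0.594 in edgeR) and −0.028 (adjusted P = 0.642 in edgeR). Without control_03 and case_01 the slopes were −0.13 and −0.12, not called (adjusted P = 0.134 and 0.0710 in edgeR). Within the low side they were −0.07 and −0.06, not called, and within the high side −0.23, called for RPL10A (adjusted P = 0.0172 in edgeR), and −0.17, not called for RPL11. Without control_09 the T cell score had 29 members called above 0 and 1 below (17.5% and 17.6% of all genes), the latter RPLP0, with a slope of −0.52 (SE 0.20, adjusted P = 0.0454 in edgeR). Without the 2 dogs farthest from the median T cell score, case_06 and control_15, 17 members were called above 0 (12.2% of all genes). With the erythroid score in the same fit over 31 dogs, 27 members were called above 0 and 0 below (6.27% and 6.08% of all genes). The lowest slope of any member, RPLP0 included, was then −0.12.

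**Figure D5:**
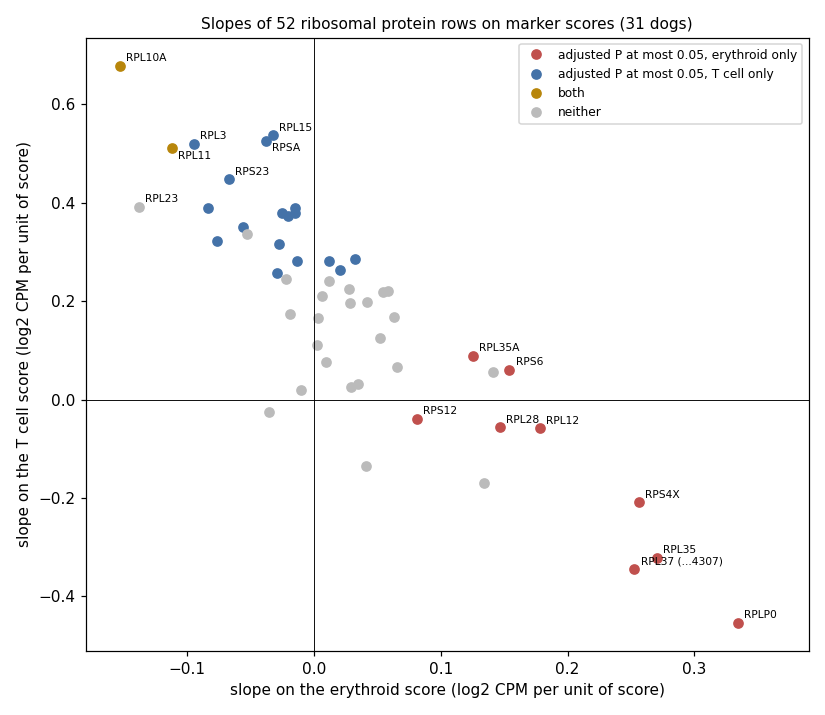
Slope of each of 52 ribosomal protein rows on the erythroid marker score (horizontal) and on the T cell marker score (vertical), in log2 CPM per unit of score over 31 dogs, coloured by which slope had an adjusted P of at most 0.05. RPLP0, RPL35, RPS4X and RPL37 lie at the lower right, RPL10A, RPL11, RPL15, RPSA and RPL3 at the upper left, and of the rows drawn only RPL10A and RPL11 were called on both scores.

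The other 6 marker scores gave few calls. On the neutrophil score 1 member, RPLP0, was called above 0 (18.2% of all genes) with a slope of 0.42 (SE 0.15), and RPS15 and RPL11 were called below (12.9% of all genes), with slopes of −0.26 and −0.23. On the platelet score the 2 RPL37 rows were called above 0 (9.35% of all genes), both with a slope of 0.50 or 0.51, and RPL23, RPL26, RPL10A, RPL36AL, RPL3 and RPL27A were called below (5.79% of all genes), with slopes from −0.41 to −0.25. The eosinophil score had 3 members called below 0 (2.03% of all genes), RPL23, RPL27A and RPS18, and 0 above (0.941% of all genes). The scores of B cells, monocytes and cytotoxic cells had 0 members called in edgeR, against 0.826%, 0.532% and 1.8% of all genes above 0 and 0.151%, 0.144% and 2.5% below.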

How the data were processed

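Whole-blood RNA came from 13 HTG cases and 18 controls, 1 library for each dog. Per the study's methods, the authors aligned reads with HISAT2 and counted read pairs of which both mates mapped, and they deposited raw counts per gene. The counting program, its strand setting and the annotation are not given in the sources used here. The methods name the assembly Dog10K_Boxer_Tasha, and whether the gene identifiers of the rows come from an annotation of it was not tested. Group and sex came from the labels, and age, used as a covariate only, from the study's table of dogs.

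In R 4.3.3, counts were filtered with filterByExpr, normalized with TMM and tested with glmQLFTest in edgeR 4.0.16, with Benjamini-Hochberg adjustment over 13918 genes and a threshold of 0.05. CPM use TMM library sizes, with a prior count of 2 on the log2 scale. The tests were tried on counts simulated for each gene alone, without correlation between genes, the small RNA split or libraries that stand apart. That check cannot show how the tests behave under these features. Alternatives were DESeq2 1.42.0, limma-voom (limma 3.58.1), other factors and filters, covariates and fewer dogs. The study used DESeq2 with a pilot batch as covariate, but the labels do not name the pilot dogs, so no batch term was used. Figures were drawn with matplotlib 3.10.9.

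The members and lists were chosen with earlier results of these data known, so the members get no test as a set. Members were named when called, by the 5 smallest P in each direction, by role, by highest and lowest level, by shared symbols and by spread. The comparison of sides, the marker slopes, the fits without single dogs and the naming of extreme members were added after the data were seen. P-values measure the spread between dogs.

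Of the listed markers FPR1, CD14, NKG7, PF4, SIGLEC8, EPX and CLC, and of the other lists EEF1G, HNRNPA1, DKC1, TSR1 and LTV1, had no row of that symbol. A case and a control share a number in their titles, but over 13 such pairs the correlation of deviations from the group means ran from −0.44 to 0.26, and 1 case was closest to its own number, so that the numbers do not pair the dogs. Coordinates, sequences and the single values of a few members are not reported here, and those members are counted but not drawn.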

Additional observations from a re-analysis of the deposited data

Results flagged for a closer look

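In the comparison of the sides of the small RNA split, control_03 lay far from the other dogs of the high side for 4 of the 14 members called there, each by a gap to the nearest dog larger than Dixon's 95% limit for 10 dogs. It had 406 CPM of RPS10 where the nearest of the other 9 dogs had 279, 204 CPM of RPL31 where the nearest had 131, 444 CPM of RPL4 where the nearest had 357, and 7.72 CPM of RPL37 (ENSCAFG00000024307) where the nearest had 4.88. The rule flags about 1 in 20 groups by chance, and all 4 flags come from 1 dog, the dog with the highest erythroid marker score and the lowest depth. Without it, 13 members were called lower on the high side and 2 higher.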

How the results depend on the processing

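In the comparison of cases with controls, 0 members were called under every alternative run. The number with an unadjusted P under 0.05 was 0 in each except within the low side, where it was 1 (RPL37, ENSCAFG00000003126, P = 0.0223), and within the high side, where it was 1 (RPS16, P = 0.0384), both in edgeR. Within the high side the 5 named members above 0 in cases fell below it: RPL37 (ENSCAFG00000003126) to −0.25, RPS24 to −0.034, RPL21 to −0.17, RPLP0 to −0.11 and RPS4X to −0.10. The median over members ran from −0.16 to 0.04. The case effect by side had 3 members at an unadjusted P under 0.05 in DESeq2 (4.88% of all genes), and from 0 to 5 when 1 dog of the high side was left out (3.22% to 5.48% of all genes). The sides differed in 1 member higher and 3 lower with the platelet score in the fit (2.35% and 0.445% of all genes), and in 2 higher and 9 to 13 lower when 1 dog was left out. On the erythroid score, members above 0 numbered 4 and members below 1 without control_03 and case_01 (11.5% and 9.69% of all genes), against 18 and 0 with the T cell score in the fit (9.64% and 4.56%). Members below numbered 6 with upper quartile factors (24.6% of all genes) and 0 within the low side (4.24%). On the T cell score, 9 members were above 0 within the low side (8% of all genes) and 0 within the high side, where 5 of all genes were called in 10 dogs, and without control_09 1 member was below (17.6% of all genes). With the erythroid score in the fit, 27 were above 0 and 0 below (6.27% and 6.08%). The share of counts without the 20 highest genes was 2.27% in cases and 2.42% in controls, and of genes with a symbol 2.21% and 2.37%. With the replicate block (the dog number in the titles), 0 members and 0 genes were called, and it changed no call of a member. Genes called in all numbered 5 in edgeR, 84 in DESeq2, 0 in limma-voom, 28 without case_01 and control_03, 8 without case_07, and 1 with at least 10 counts in every dog. Between sexes they numbered 17 in edgeR and 26 in DESeq2. The cause of these changes was not tested.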

Other observations

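Other genes of translation were set against the same marker scores, on which 15.4% of all genes were called above 0 and 17.6% below for the T cells, and 16.4% above and 15.4% below for the erythroid cells. Of 26 ribosome assembly genes, which encode factors that process ribosomal RNA and join the subunits in the nucleolus, 16 were called above 0 on the T cell score and 0 below, and on the erythroid score 0 were called above and 20 below, with a median slope of −0.14. With both scores in the same fit, 8 were called above 0 on the T cell score, and 6 were called below on the erythroid score (6.27% and 4.56% of all genes). Mitochondrial ribosomal proteins had 12 of 59 called above 0 and 1 below on the T cell score, and 2 above and 13 below on the erythroid score. Translation factors and other TOP mRNAs had 9 of 21 above and 3 below on the T cell score, and 6 above and 2 below on the erythroid score. With both scores in the same fit, the mitochondrial list had 4 above and 0 below on the T cell score, and the TOP list 9 and 0 (6.27% and 6.08% of all genes). On the erythroid score they then had 2 above and 2 below, and 7 and 0 (9.64% and 4.56% of all genes). The difference between these lists was not tested.

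Between cases and controls these lists had 0 genes called in edgeR (0.0359% of all genes), where 45.5% of all genes were above 0 and 9.81% had an unadjusted P under 0.05. Ribosome assembly genes had 3 of 26 above 0 in cases (median −0.12) and 2 lower at an unadjusted P under 0.05. The mitochondrial ribosomal proteins had 26 of 59 above 0 (median −0.02), with 1 higher and 1 lower at an unadjusted P under 0.05. Of the TOP mRNAs 7 of 21 were above 0 (median −0.04), with 0 at an unadjusted P under 0.05.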
